A study of Rattus norvegicus with 6 samples.

Results

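The genes of glycolysis, gluconeogenesis and pyruvate metabolism were followed in kidneys of diabetic rats and of rats given Bailing Capsule. The set holds 43 genes, chosen by name, and every array probe whose RefSeq accession belongs to 1 of them was taken. Of the 43 genes 42 had a probe, with 53 probes among the 30367 non-control probes of the array, and no probe was matched to Ldhd. Of the 42, 41 passed the filter on dim probes and were tested, and Pfkfb4 was well above background on 2 of the 6 arrays and was not tested.

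The study compared 3 kidneys labelled diabetic, of rats aged 21 weeks, with 3 kidneys of rats of the same age labelled as treated with Bailing Capsule, a medicine made from fermented Cordyceps mycelium. The labels give no dose, strain or sex, do not say how diabetes was produced or whether the treated rats were diabetic, and name no untreated group, so every difference below is between those 2 labelled groups and is written as Bailing Capsule minus diabetic. Total kidney RNA was labelled with Cy3 and read on Agilent 1-colour arrays, 1 array for each kidney sample. Nothing in the labels describes how the samples of a group were collected, and the p-values below describe only how much these arrays scatter, which may be technical in part.

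Glycolysis splits glucose into pyruvate and gluconeogenesis runs the same route backwards, with separate enzymes at the steps that are irreversible. Hexokinase is opposed by glucose-6-phosphatase, phosphofructokinase by fructose-1,6-bisphosphatase, and pyruvate kinase by pyruvate carboxylase with phosphoenolpyruvate carboxykinase. In the kidney the proximal tubule makes glucose, from lactate and glutamine among other sources, whereas the more distal segments and the medulla use glycolysis. Pyruvate either is exchanged with lactate, which crosses the cell membrane through monocarboxylate transporters, or enters mitochondria, where the pyruvate dehydrogenase complex oxidises it under the control of inhibitory kinases and activating phosphatases.

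Signals are given as log2 of the processed signal minus the 75th percentile of the probes on the same array, so that 0 is the level of a probe at that percentile. Such a level is not comparable between probes, and only differences between arrays are read from it. The 6 arrays were alike in quality: 65.0% to 73.7% of probes were well above background, no spot was saturated, and pairs of arrays correlated at 0.966 to 0.992. Diabetic replicate 1 and all 3 Bailing Capsule samples shared a scan start time, taken here as slide 1, and diabetic replicates 2 and 3 shared another. A difference with slide as a block therefore rests on diabetic replicate 1 alone. The proximal tubule was well represented, with 12 of 12 of its marker genes tested and their summed linear signal, relative to the same percentile, ranging from 706 to 1148 in the diabetic samples and from 582 to 1083 in the Bailing Capsule samples.

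The 3 largest differences among the members were those of Slc16a1, Fbp2 and Pck1, a lactate transporter and 2 gluconeogenic enzymes, and all 3 were lower in the Bailing Capsule kidneys. Slc16a1, the monocarboxylate transporter MCT1 that carries lactate and pyruvate with a proton, was 4.86-fold lower in the Bailing Capsule kidneys and was the only member called at an adjusted p under 0.05 by limma. Across all 17892 features tested, 57 were called, which is 0.319%, with 34 lower (0.19%) and 23 higher (0.129%). With slide as a block 38 of the 17883 features that could be fitted were called (0.212%), 10 of them lower (0.0559%), and 45 features were called in the authors' deposited table (0.252%), 20 of them lower (0.112%), and neither held a member. In 5 members, Slc16a1, Fbp2, Pck1, Ldha and Tpi1, every Bailing Capsule value lay below every diabetic value, and no member had the reverse order. Groups were apart in 12.2% of the members and in 11.6% of all features, 7.06% lower and 4.58% higher, so that the share among the members was near that of the array as a whole. An unadjusted p under 0.05 was reached by 5 members, or 12.2%, against 7.55% of all features, and the 5 were Slc16a1, Fbp2, Pck1, Ldha and Hk2.

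Of the 41 members tested, 28 had a negative difference (68.3%) and 13 a positive one, against 62.1% negative among all features. The median difference was -0.20 over the members and -0.09 over all features. That median shifted with the scaling: it was -0.05 for the members and -0.04 for all features after quantile normalization, 0.01 for both in the authors' deposited table, and -0.03 and 0.09 with slide as a block. Lower levels in bulk tissue can come from fewer cells of a type or from less RNA per cell, and these cannot be told apart here.

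**Figure D1:**
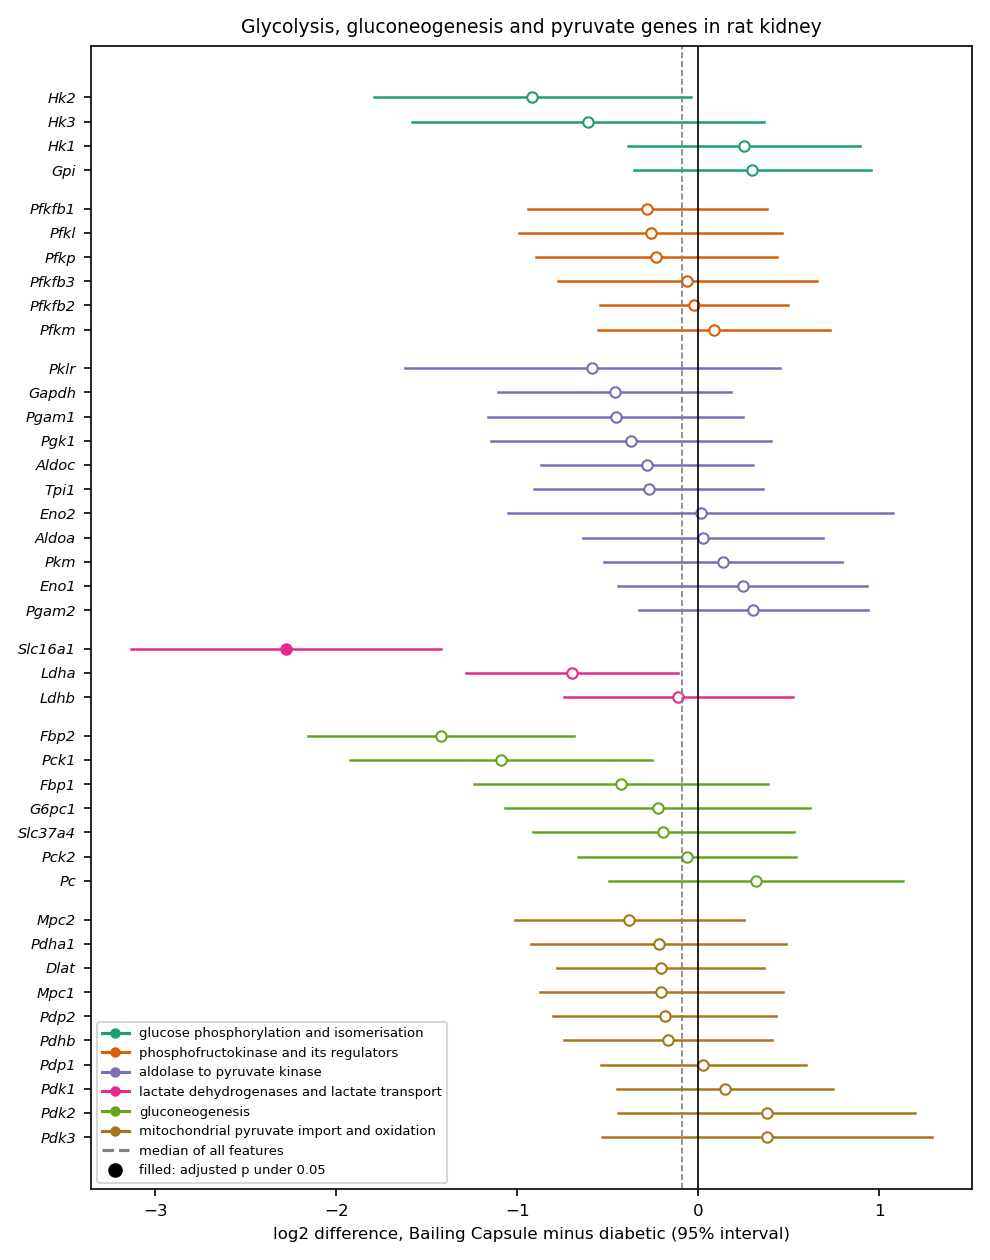
Log2 difference in signal, Bailing Capsule minus diabetic, for the 41 tested members with its 95% interval from limma (3 arrays a group), coloured by role, with the median of all features as a dashed line at -0.09. Slc16a1, the filled point at -2.28, is the only member called, and the intervals of Fbp2, Pck1, Ldha and Hk2 also lie below 0.

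At the first step of glycolysis none of the 3 hexokinases was called. Hk2, the insulin-regulated hexokinase best known from muscle and fat, had signals of -4.31, -2.59 and -3.26 in the diabetic samples and of -4.11, -4.46 and -4.34 in the Bailing Capsule samples. Diabetic replicates 2 and 3 were the high values, and diabetic replicate 1 lay among the treated samples, so the groups overlapped. The difference was -0.92 ± 0.39 (SE), with an adjusted p of 0.623, and with slide as a block it was 0.007. Hk3, a hexokinase of leukocytes, had signals of -2.88, -1.35 and -2.11 against -1.93, -3.03 and -3.20, with overlapping groups and a difference of -0.61 (adjusted p = 0.898). Its difference with slide as a block was 0.16. Of 8 leukocyte markers 5 were tested. Their summed signal ranged from 49.9 to 61.2 in the diabetic samples and from 43.6 to 81.1 in the Bailing Capsule samples. That sum was mostly the signal of Lyz2, with a diabetic mean of 5.69. Those of Ptprc, Cd68, Csf1r and Tyrobp were -1.62, -0.12, -0.81 and 0.29, so the sum says little about leukocyte genes other than Lyz2. The part of these markers in the Hk3 values was not tested. Hk1, the broadly expressed hexokinase, had a difference of 0.25 (adjusted p = 0.968), or 0.63 with slide as a block, and Gpi, which isomerises glucose-6-phosphate to fructose-6-phosphate, one of 0.30 (adjusted p = 0.959).

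The commitment step showed the narrowest range. The 3 phosphofructokinase subunits Pfkl, Pfkm and Pfkp and the 3 tested bifunctional enzymes Pfkfb1, Pfkfb2 and Pfkfb3, which make and remove the activator fructose-2,6-bisphosphate, had differences from -0.28 to 0.09 with a median of -0.15, and none was called. Pfkl, the liver-type subunit, had signals of 4.65, 4.73 and 4.54 in the diabetic samples and of 5.11, 3.98 and 4.04 in the Bailing Capsule samples. Bailing Capsule replicate 1 was the highest of the 6 and the other 2 treated samples the lowest, and the difference was -0.26 (adjusted p = 0.969). Pfkfb1, the liver and muscle isoform of the bifunctional enzyme, had the largest difference of this step, -0.28 (adjusted p = 0.964).

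The 11 enzymes from aldolase to pyruvate kinase had a median difference of -0.27 and a range from -0.59 to 0.30, with 6 negative and 5 positive values and none called. Tpi1, triosephosphate isomerase, had signals of 5.70 and 5.68 in diabetic replicates 1 and 3 and of 5.32, 5.31 and 5.63 in the Bailing Capsule samples, while the spot of diabetic replicate 2 was left out as an outlier. The groups of 2 and 3 values did not overlap, but Bailing Capsule replicate 3 lay just under the diabetic values, and the difference was -0.27 (adjusted p = 0.962). A second Tpi1 probe, measured on all 6 arrays, gave -0.31. Gapdh, glyceraldehyde-3-phosphate dehydrogenase, had signals of 4.25, 5.05 and 4.50 against 4.04, 4.43 and 3.93, with overlapping groups and a difference of -0.46 (adjusted p = 0.845). Its other probes gave -0.27 and -0.46. Pgam1, the phosphoglycerate mutase of non-muscle tissue, had the same difference of -0.46 (adjusted p = 0.890). Aldoa, Eno1, Eno2 and Pgam2 had differences of 0.03, 0.25, 0.01 and 0.30, Eno2 without a value for Bailing Capsule replicate 3, and Pgk1 and Aldoc had -0.37 and -0.28.

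Pyruvate kinase, which ends glycolysis, is encoded by Pklr in liver, kidney cortex and red cells and by Pkm in most other tissues. Pklr had signals of 2.85, 2.58 and 2.37 in the diabetic samples and of 3.05, 0.87 and 2.12 in the Bailing Capsule samples. The treated samples spanned the diabetic range, with replicate 1 above it and replicate 2 far below it, and the difference of -0.59 (adjusted p = 0.916) was within that spread. Without Bailing Capsule replicate 2 the Pklr difference was -0.01. Pkm had a difference of 0.14 (adjusted p = 0.982) by the probe that was above background, and its other probe was not well above background on any array.

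Lactate handling held the member with the smallest p. Slc16a1 had signals of -0.39, 1.12 and 0.81 in the diabetic samples, with a mean of 0.52 ± 0.80 (SD, n = 3), and of -1.50, -2.10 and -1.69 in the Bailing Capsule samples, with a mean of -1.76 ± 0.31 (SD, n = 3). All 3 treated samples lay below all 3 diabetic samples, and diabetic replicate 1, which shared the slide of the treated samples, was the nearest to them. The difference was -2.28 ± 0.38 (SE), with a 95% interval from -3.14 to -1.42 and an adjusted p of 0.0462 by limma. With slide as a block it was -1.38 with an adjusted p of 0.358. The call also ended without diabetic replicate 2 (adjusted p = 0.229), without diabetic replicate 3 (0.182), without Bailing Capsule replicate 2 (0.181) and without Bailing Capsule replicate 3 (0.101), with differences from -2.32 to -1.98 in these cases. With near the same difference of -2.29 to -2.24 it missed the threshold after quantile normalization (adjusted p = 0.0718), in the authors' deposited table (0.0637), with the mean of the kept probes of each gene (0.0558), without the filter on dim probes (0.246), with a minimum fold of 1.2 (0.0727) and with the replicate number as a block (0.223).

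Slc16a1 is also expressed outside the nephron, in fat among other tissues. Of 8 adipocyte markers 5 were tested and none was called. Cidea (-1.90) and Adrb3 (-1.89) were lower without overlap, Adipoq (-0.46) and Cidec (-0.61) overlapped, and Lpl (0.73) was higher without overlap. Their summed linear signal ranged from 12.3 to 18.2 in the diabetic samples and from 4.99 to 13.1 in the Bailing Capsule samples. Its highest treated sample was within the diabetic range, and the part of these markers in the Slc16a1 result was not tested. The related transporters in the list of other pathway genes did not share 1 direction. Slc16a7, the transporter MCT2 with high affinity for pyruvate, had signals of 0.99, 1.05 and 0.93 in the diabetic samples and of 1.43, 1.53 and 1.78 in the Bailing Capsule samples. Its treated samples all lay above the diabetic ones, the reverse of Slc16a1, with a difference of 0.59 (adjusted p = 0.575), and of 0.59 also with slide as a block. Slc16a3, the transporter MCT4 of glycolytic cells, differed by -0.67 (adjusted p = 0.633), or -0.37 with slide as a block. Its treated samples all lay below the diabetic ones, as for Slc16a1, but Bailing Capsule replicate 1 (-1.09) was only just below diabetic replicate 1 (-1.06). Bsg, the chaperone that these transporters need at the membrane, differed by 0.02. Slc16a3 and Bsg were named after their values had been seen.

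Ldha and Ldhb encode the M and H subunits of lactate dehydrogenase, the enzyme that interconverts pyruvate and lactate. Ldha had signals of 5.60, 6.31 and 5.88 in the diabetic samples and of 5.30, 5.19 and 5.21 in the Bailing Capsule samples. The treated samples lay close together and below every diabetic sample, and the difference was -0.70 ± 0.26 (SE), 1.62-fold lower, with an adjusted p of 0.512. The difference was -0.37 with slide as a block and -0.42 in the authors' deposited table. Ldhb had signals of 5.48, 6.36 and 5.75 against 5.89, 5.65 and 5.71, with overlapping groups and a difference of -0.11 (adjusted p = 0.982) that turned to 0.18 after quantile normalization and 0.21 in the authors' deposited table.

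**Figure D2:**
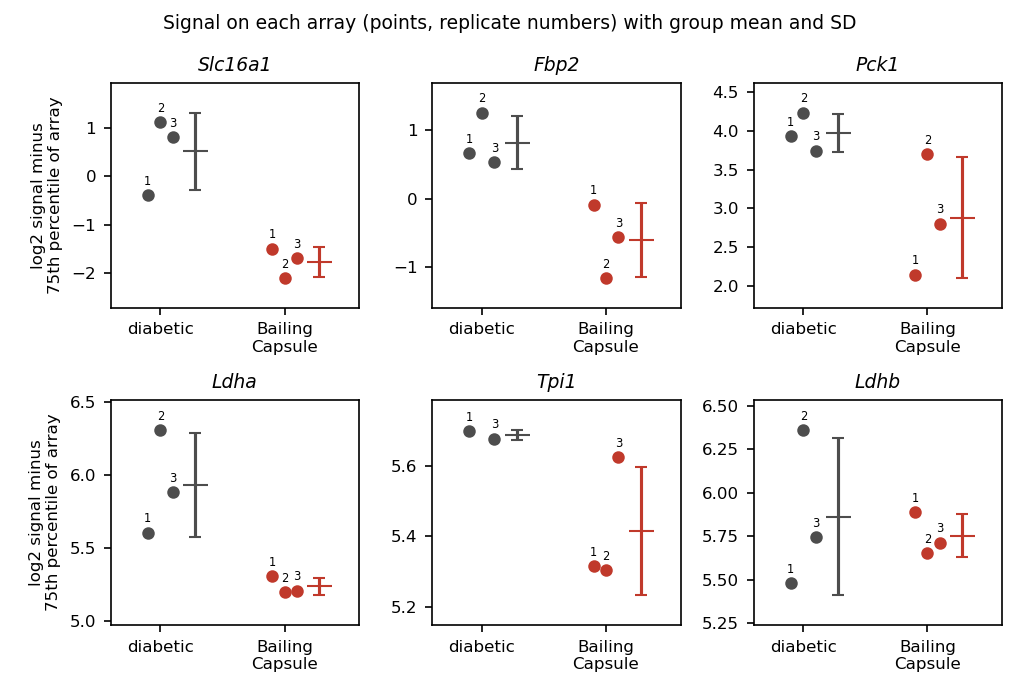
Signal of the 5 members whose groups did not overlap, and of Ldhb, on each array (points numbered by replicate), with the group mean and SD to the right of the points; the vertical axes are log2 signal minus the 75th percentile of the array and differ between panels. Slc16a1 ran from -2.10 to -1.50 in the Bailing Capsule samples and from -0.39 to 1.12 in the diabetic ones, whereas the 2 groups of Ldhb overlapped, and Tpi1 has 2 diabetic values.

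The bases before the transcript start are shown for Slc16a1, Ldha, Ldhb and Pck1, as members whose groups were apart, with Ldhb as the isozyme partner of Ldha whose groups overlapped. Of the other members apart, Tpi1 held none of the letters searched and is not shown, and Fbp2 had no entry. The windows are the 250 bases before the RefSeq start in the GRCr8 assembly, written 5′ to 3′ on the gene's strand, at chr2:194812410-194812659 (plus strand) for Slc16a1, chr1:106507842-106508091 (plus) for Ldha, chr4:177177409-177177658 (minus) for Ldhb and chr3:182348322-182348571 (plus) for Pck1. Capitals mark the letters of 4 motifs searched on both strands: the E-box CACGTG, the cyclic AMP response element TGACGTCA, the direct repeat of AGGTCA spaced by 1 base, and the hypoxia response cores ACGTG and GCGTG.
Slc16a1: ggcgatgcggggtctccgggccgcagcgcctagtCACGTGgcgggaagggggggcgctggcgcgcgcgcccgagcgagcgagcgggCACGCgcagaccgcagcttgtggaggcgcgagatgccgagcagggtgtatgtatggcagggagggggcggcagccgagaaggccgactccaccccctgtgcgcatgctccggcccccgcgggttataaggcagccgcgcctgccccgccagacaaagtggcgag
Ldha: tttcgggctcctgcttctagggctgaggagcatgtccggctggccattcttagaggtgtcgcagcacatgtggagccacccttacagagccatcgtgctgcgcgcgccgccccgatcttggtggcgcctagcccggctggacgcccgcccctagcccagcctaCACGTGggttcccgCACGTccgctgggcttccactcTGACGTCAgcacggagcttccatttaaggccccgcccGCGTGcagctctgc
Ldhb: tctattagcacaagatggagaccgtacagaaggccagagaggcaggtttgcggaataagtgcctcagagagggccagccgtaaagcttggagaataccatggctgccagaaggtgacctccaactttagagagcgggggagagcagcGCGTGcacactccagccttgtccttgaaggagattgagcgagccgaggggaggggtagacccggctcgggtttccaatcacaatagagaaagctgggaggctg
Pck1: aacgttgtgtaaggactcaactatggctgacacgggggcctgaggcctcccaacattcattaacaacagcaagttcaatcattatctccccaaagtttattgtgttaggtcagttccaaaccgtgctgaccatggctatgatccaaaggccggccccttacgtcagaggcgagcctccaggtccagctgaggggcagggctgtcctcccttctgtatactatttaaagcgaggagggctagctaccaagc

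Slc16a1 carried an E-box from base -216 to -211 and Ldha an E-box from -87 to -82 and a cyclic AMP response element from -51 to -44, counted from the transcript start. Among the 38 members with an entry in the RefSeq table, 5 (13.2%) held the E-box letters in the 300 bases from 250 before to 50 after the start, against 6.42% of all 33469 windows. The cyclic AMP response element was in 1 of the 38 (2.63%) against 1.83% of all windows, and the direct repeat in 0 against 0.0538%. Either hypoxia core was in 25 of the 38 (65.8%) against 41.6%, and since every E-box contains ACGTG on both strands these 2 counts overlap. Each member was counted with 1 window, whereas the 33469 windows were not reduced to 1 for each gene. The shares of members and of all windows are thus over unlike sets. Ldhb held 1 GCGTG and no E-box, and Pck1 held none of the letters searched. Only exact matches were counted, and the Pck1 window holds ttacgtca, which differs from TGACGTCA in 1 base. These are matches of letters only, and nothing was measured at these windows.

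Gluconeogenesis had 7 members, all tested, of which 6 had a negative difference, with a median of -0.23, and none was called. That median was 0.02 in the authors' deposited table and -0.03 with slide as a block. The 12 proximal tubule markers had 11 negative differences and 1 positive one, with a median of -0.29. Their median was -0.0002 in the authors' deposited table and 0.04 with slide as a block. The part of these tubule markers in the gluconeogenic results was not tested. Pck1, cytosolic phosphoenolpyruvate carboxykinase and a main point of control of glucose synthesis in the proximal tubule, had signals of 3.93, 4.24 and 3.74 in the diabetic samples and of 2.14, 3.70 and 2.80 in the Bailing Capsule samples. The groups did not overlap, but Bailing Capsule replicate 2 lay only just below diabetic replicate 3, and in the authors' deposited table that sample, at 12.35, was the highest of the 6. The difference was -1.09 ± 0.38 (SE), 2.13-fold lower, with an adjusted p of 0.418, and it was -1.05 with slide as a block and -0.88 in the authors' deposited table. Pck2, the mitochondrial form, had a difference of -0.06.

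Fructose-1,6-bisphosphatase is encoded by Fbp1, the form of liver and kidney, and by Fbp2, the form best known from muscle. Fbp2 had signals of 0.66, 1.26 and 0.53 in the diabetic samples and of -0.09, -1.16 and -0.56 in the Bailing Capsule samples. All treated samples lay below all diabetic samples, diabetic replicate 1 included. The difference was -1.42 ± 0.33 (SE), 2.68-fold lower, with an adjusted p of 0.163, and it was -1.27 with slide as a block and -1.37 in the authors' deposited table. Fbp2 was called in 2 of 20 alternatives, after normexp background correction (adjusted p = 0.0244) and without Bailing Capsule replicate 1 (adjusted p = 0.0327). Of 7 skeletal muscle markers 3 were tested, Tnni2, Acta1 and Ckm. Their summed signal was 0.711 to 0.804 in the diabetic samples and 0.626 to 0.873 in the Bailing Capsule samples, so that the diabetic range lay inside the treated one. That sum was mostly the signal of Tnni2, as the diabetic means were -0.99, -2.57 and -3.71. Their differences were -0.08, 0.05 and -0.51, and the part of these markers in the Fbp2 result was not tested. Fbp1 had signals of 6.84, 7.74 and 7.13 against 7.48, 6.22 and 6.72, with overlapping groups and a difference of -0.43 (adjusted p = 0.932).

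The last step of glucose release was not separated between the groups. G6pc1, the catalytic subunit of glucose-6-phosphatase, had signals of 5.72, 5.66 and 5.32 in the diabetic samples and of 5.0, 6.26 and 4.76 in the Bailing Capsule samples. Bailing Capsule replicate 2 was the highest of the 6 and the other treated samples the lowest, and the difference was -0.23 (adjusted p = 0.975), with -0.30 from a second probe and 0.04 in the authors' deposited table. Slc37a4, which carries glucose-6-phosphate into the endoplasmic reticulum, differed by -0.19, and Pc, pyruvate carboxylase, by 0.32. Pck1, Fbp1 and G6pc1 are genes of liver as well as kidney, and 5 of 10 liver markers were tested, all with negative differences and a median of -1.2, or -0.35 after normexp. Their summed signal ranged from 1.88 to 2.85 in the diabetic samples and from 0.871 to 0.960 in the Bailing Capsule samples, without overlap. Alb, Fga, Fgb, Serpina1 and Ttr were the 5 tested, and Apoa1, Apoa2, Tat, Cps1 and Ahsg did not pass the filter on dim probes. The sum was mostly the signal of the fibrinogen genes Fga and Fgb, with diabetic means of -0.11 and 0.18. Those of Alb, Serpina1 and Ttr were -2.69, -3.71 and -4.11, so the sum says little about liver genes other than fibrinogen. The part of these markers in the gluconeogenic results was not tested.

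Set side by side, the 21 glycolytic members tested had 13 negative and 8 positive differences and a median of -0.23, and the 7 gluconeogenic members 6 negative and 1 positive with the same median of -0.23. Neither group held a called gene. Within the glycolytic group the range was from -0.92 to 0.30 and within the gluconeogenic group from -1.42 to 0.32. The difference between the 2 medians was not tested, and it varied with the processing: the glycolytic and gluconeogenic medians were -0.07 and -0.28 after normexp, and -0.22 and -0.45 without Bailing Capsule replicate 1.

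**Figure D3:**
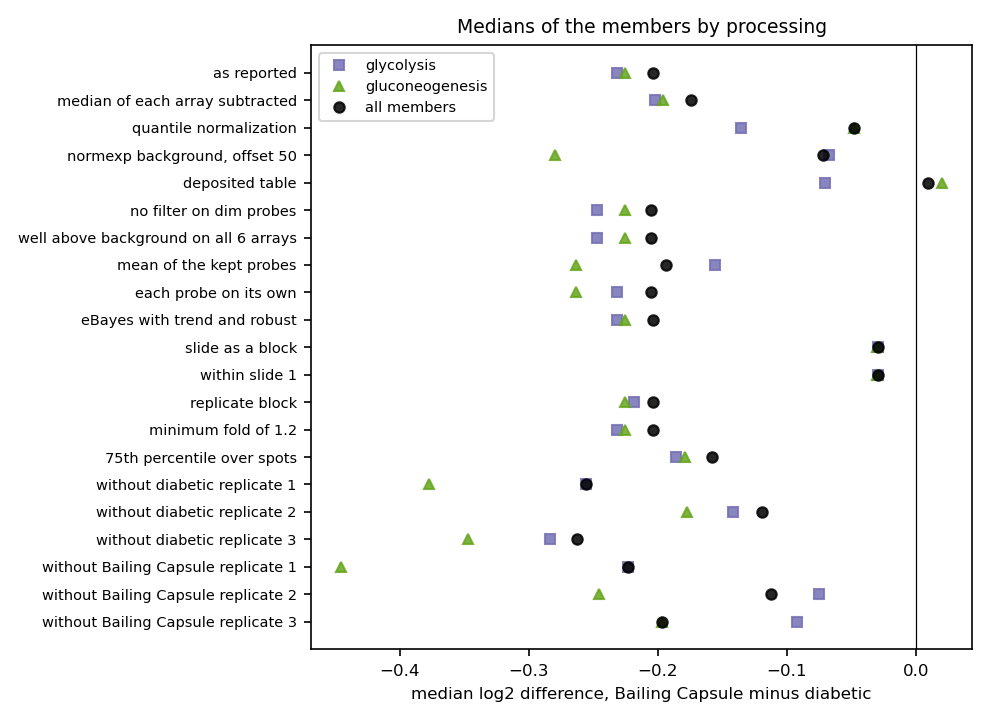
Median log2 difference, Bailing Capsule minus diabetic, of all tested members (circles), of the glycolytic members (squares) and of the gluconeogenic members (triangles) under each way of processing the arrays. The reported medians are -0.20, -0.23 and -0.23, and they move to 0.01, -0.07 and 0.02 in the authors' deposited table and to -0.03 in all 3 with slide as a block.

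Ratios taken within an array do not change when the whole array is scaled, so the members of 1 step were also compared as log2 ratios, each expressed against the mean ratio of the diabetic samples. A ratio shows that 2 genes differed unequally, not which of them was steady. A shift of an array that goes with brightness can remain in the ratio of a bright probe to a dim one. Diabetic means were 4.27 and -3.39 for Hk1 and Hk2, and 7.24 and 0.82 for Fbp1 and Fbp2. They were closer, at 5.93 and 5.86, for Ldha and Ldhb. Of 21 pairs of the same step 5 had groups that did not overlap, as did 4 of 15 pairs of opposing enzymes. The 21 were isozyme pairs, except Mpc1 with Mpc2, which are subunits of 1 carrier. Among all 820 pairs of tested members 149 had groups that did not overlap, or 18.2%. The pairs share genes, so they are not independent, and no share was taken over pairs of all features. Each opposing pair that was apart held Fbp2 or Pck1. Each isozyme pair that was apart, except those of Hk1, held Ldha, Pck1 or Fbp2. The groups of Ldha, Pck1 and Fbp2 were already apart by themselves, so such ratios partly repeat the results of single genes.

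The ratio of Ldha to Ldhb was 0.05, -0.12 and 0.07 in the diabetic samples and -0.65, -0.53 and -0.58 in the Bailing Capsule samples. The 3 treated samples lay within a narrow band well below the diabetic ones, a difference of -0.59, and the difference was -0.64 within slide 1 and -0.62 in the authors' deposited table. Over the same arrays the ratio of Pck1 to Pck2 was 0.13, 0.01 and -0.14 against -1.49, -0.58 and -1.02, a difference of -1.03. The ratio of Fbp1 to Fbp2 was -0.24, 0.06 and 0.18 against 1.16, 0.96 and 0.86, a difference of 0.99 towards the liver and kidney form. These 3 ratios were thus apart on every array, and within slide 1 those of Pck1 and Fbp1 to their isozymes differed by -1.16 and 1.24.

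Hexokinase ratios were apart too, but less evenly. The ratio of Hk1 to Hk2 was 0.55, -0.56 and 0.01 in the diabetic samples and 1.39, 1.04 and 1.08 in the Bailing Capsule samples, a difference of 1.17 that was 0.62 within slide 1. The ratio of Hk1 to Hk3 was 0.39, -0.52 and 0.13 against 0.47, 0.89 and 1.21, so that the nearest samples of the 2 groups almost met. Among the opposing enzymes, the ratios that were apart were those of Fbp2 to each of Pfkl, Pfkm and Pfkp, with differences of -1.16, -1.51 and -1.19, and that of Pck1 to Pkm, with -1.23. The ratios of Fbp1 to the phosphofructokinases and of G6pc1 to the hexokinases overlapped between groups.

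**Figure D4:**
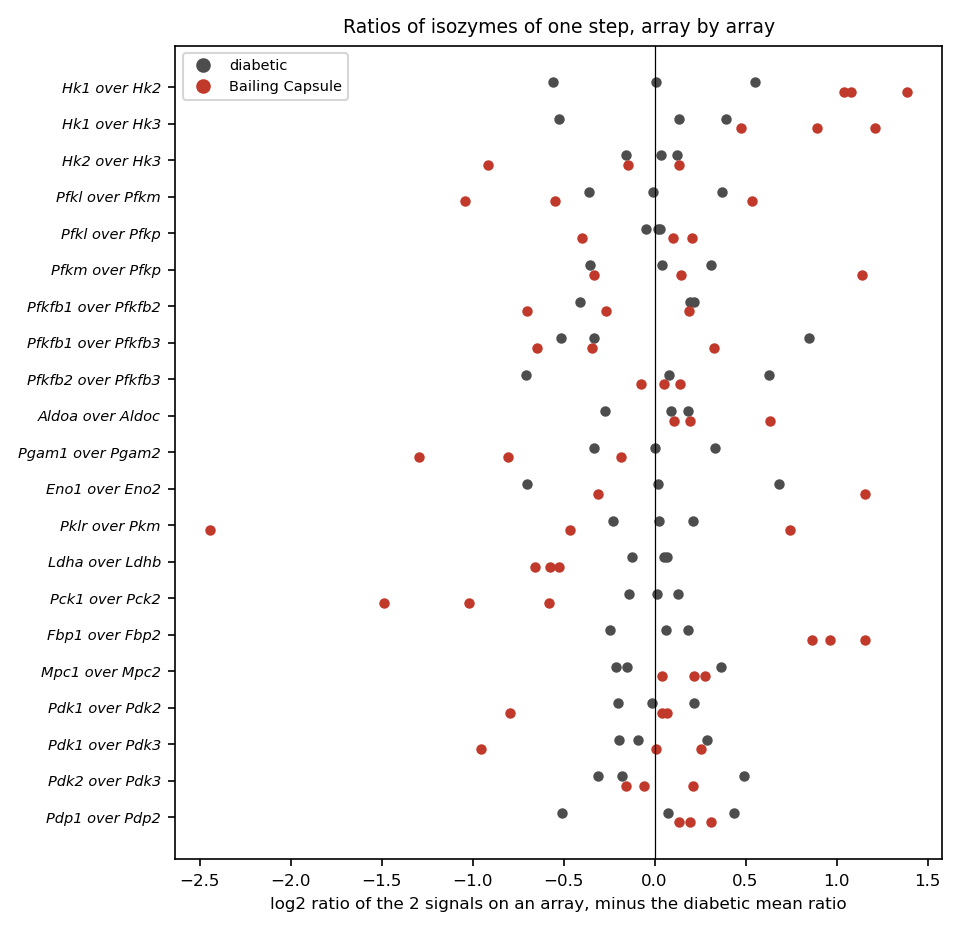
Log2 ratio of the signals of 2 isozymes of a step on each array, minus the mean ratio of the diabetic samples, for 21 pairs (grey points diabetic, red points Bailing Capsule, 3 arrays each, and 2 treated arrays for Eno1 over Eno2). Mpc1 and Mpc2, also among the pairs, are subunits of a carrier and not isozymes. The red and grey points do not overlap for Hk1 over Hk2, Hk1 over Hk3, Ldha over Ldhb, Pck1 over Pck2 and Fbp1 over Fbp2.

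The mitochondrial members had small differences in both directions. The 10 genes of pyruvate import and oxidation had a median of -0.18 and a range from -0.38 to 0.38, 6 negative and 4 positive, with no called gene and no gene whose groups were apart. Mpc2, a subunit of the mitochondrial pyruvate carrier, had signals of 5.36, 5.46 and 5.46 in the diabetic samples and of 5.41, 4.53 and 5.19 in the Bailing Capsule samples. Replicate 2 was the low treated sample and replicate 1 lay within the diabetic range, with a difference of -0.38 (adjusted p = 0.909), and its partner Mpc1 differed by -0.20. Pdha1, the catalytic alpha subunit of pyruvate dehydrogenase, differed by -0.22 (adjusted p = 0.972), and Pdhb and Dlat, the beta subunit and the acetyltransferase of the complex, by -0.17 and -0.21.

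The pyruvate dehydrogenase kinases, which inhibit the complex, had positive differences in all 3 members under each scaling tried, none of them called, and in Pdk2 and Pdk3 this sign rested on Bailing Capsule replicate 2. Pdk2, the widely expressed kinase, had signals of 1.48, 1.88 and 1.34 in the diabetic samples and of 1.32, 2.77 and 1.75 in the Bailing Capsule samples. Replicate 2 alone lay above the diabetic range, and the difference was 0.38 (adjusted p = 0.957), or -0.04 without that replicate. Pdk3 and Pdk1 had differences of 0.38 and 0.15, or -0.11 and 0.02 without that replicate, and the phosphatases Pdp1 and Pdp2, which reactivate the complex, by 0.03 and -0.19. Pdk4, the kinase raised in fasting and diabetes, is in the list of other pathway genes and had signals of -2.07, -3.80 and -2.17 in the diabetic samples and of -6.76, -4.66 and -4.85 in the Bailing Capsule samples. Its groups did not overlap, and it was well above background on 2 of the 3 treated arrays. Pdk4 thus passed the filter on dim probes only through the diabetic group, where it was high, so its separation is not independent of the filter. The Pdk4 difference, which includes the array not well above background, was -2.75 ± 0.59 (SE), with an adjusted p of 0.129, and it was -3.36 with slide as a block and -0.62 after normexp background correction.

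The other genes of the pathway gave a similar picture. Of 34 further enzymes and transporters 28 were tested and none was called, 19 with negative and 9 with positive differences and a median of -0.18. Gpd2, the mitochondrial glycerol-3-phosphate dehydrogenase that passes glycolytic electrons to the respiratory chain, had signals of -1.59, -1.18 and -1.67 against -2.26, -2.42 and -2.13, without overlap, a difference of -0.79 (adjusted p = 0.357). Of 22 transcription regulators 16 were tested and none was called, with a median of -0.11. Cebpb, a factor that acts on gluconeogenic genes, differed by -0.64 (adjusted p = 0.672), with groups apart, and Ppara, the fatty acid receptor that acts on Pdk4, by -0.36, a sign that turned to 0.51 in the authors' deposited table. Of 13 targets of hypoxia inducible factor 11 were tested and none was called, 7 with negative and 4 with positive differences and a median of -0.04, and the 3 with the smallest p were Ndrg1 (-0.69), Adm (-0.52) and Bnip3 (-0.26).

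Single arrays left a mark on many members at once. Over the 39 members with a value on all 6 arrays, diabetic replicate 2 was the highest sample in 19, and Bailing Capsule replicate 2 was the lowest in 17 and the highest in 11. Much of this was shared by the whole array. Of 17356 features with all 6 values, diabetic replicate 2 was the highest in 7051. Bailing Capsule replicate 2 was the lowest in 5474 of them and the highest in 3426. Among the members, the position of Bailing Capsule replicate 2 went with the brightness of the probe. It was the lowest of the 6 in 12 of the 20 brighter members and the highest in 9 of the 19 dimmer ones. Bailing Capsule replicate 1 went the other way, highest in 5 of the 20 brighter and lowest in 8 of the 19 dimmer. Relative to the median of the other 5 arrays, the median of the brighter members was -0.46 in replicate 2 and 0.23 in replicate 1, and that of the dimmer members 0.20 and -0.29. All features, split at -1.19 and not at 2.12 as the members were, bore this out only in part. Their brighter and dimmer medians were -0.25 and -0.03 in replicate 2, and 0.15 and 0.10 in replicate 1. Replicate 2 was the lowest in 3920 of the 8678 brighter features and the highest in 2098 of the 8678 dimmer ones. In the authors' deposited table, with 41 members complete, the brighter and dimmer medians of replicate 2 were 0.13 and 0.21, and those of replicate 1 -0.13 and -0.29. In that table every treated sample stayed below every diabetic one for Slc16a1, Fbp2 and Ldha, and the groups of Pck1 and Tpi1 overlapped. Hk2 and Pgam1 were lower without overlap there, and Hk1 was higher without overlap, so that 5 members were apart lower and 1 higher. No share over all features was taken in that table, so these counts cannot be set against the whole array.

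**Figure D5:**
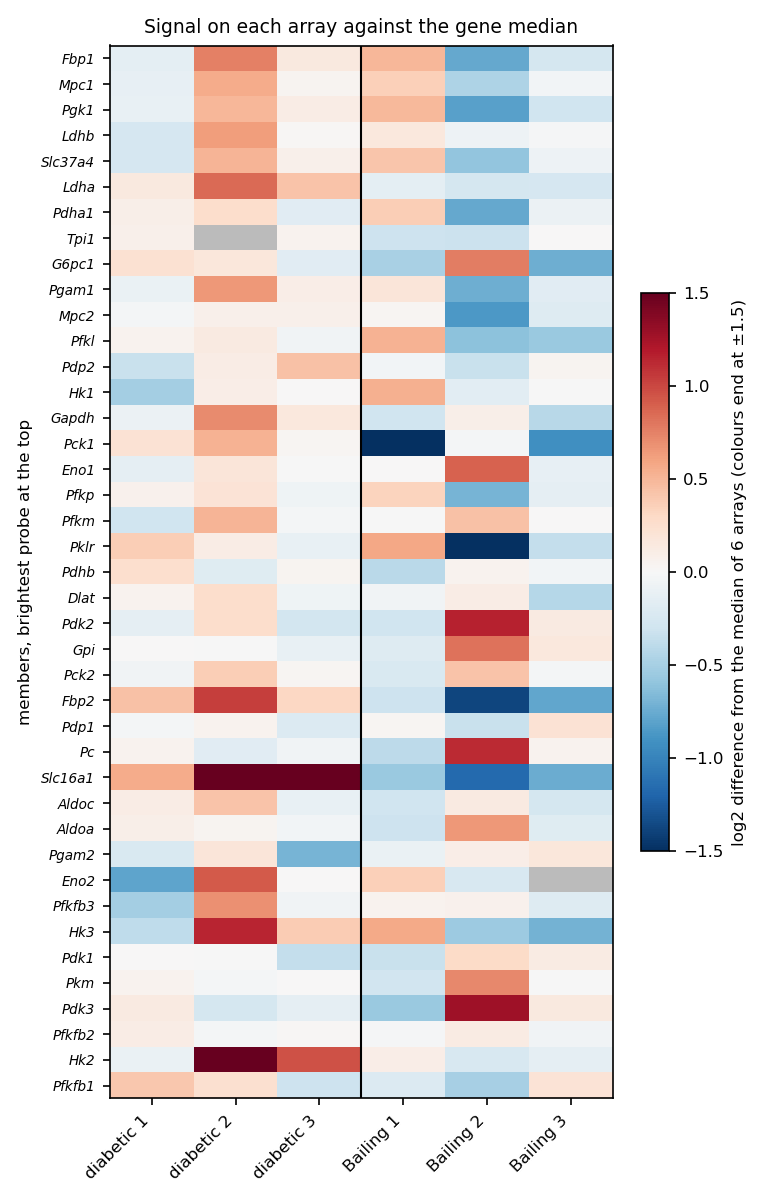
Signal of each tested member on each array, as log2 difference from the median of that gene over its arrays, with members ordered from the brightest probe at the top and colours ending at ±1.5 (grey, no value). Bailing Capsule replicate 2 is blue in most of the bright rows and red in many of the dim ones, diabetic replicate 2 is red in most rows, and Slc16a1, Fbp2 and Ldha are red in the diabetic columns and blue in the treated ones.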

How the data were processed

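Kidney RNA of 6 rats was measured on Agilent arrays, 3 in each group. Deposited scanner files hold, per the file headers, the processed signal intensity of each spot after background subtraction by the scanner software, on 42877 non-control spots. The authors' deposited value table holds log2 values whose normalization is not given in the sources used here. Each of its columns has a median of 5.05 and correlated at 0.983 to 0.994 with the scanner values of its own array, and its centring stays unknown. Outlier spots (597 to 1091 an array) and control spots were left out, spots of a probe were averaged, and log2 intensity was reduced by the 75th percentile of the probes of each array. A probe was kept where at least 50% of its spots were well above background on all 3 arrays of a group. The brightest kept probe stood for a gene. Of the probes, 18005 were named through RefSeq accessions and 12362 were not. The difference between groups was tested with lmFit and eBayes (limma 3.58.1, R 4.3.3), with p-values adjusted by Benjamini-Hochberg over 17892 features. In simulated data 54% of features changed by 2 (log2) were recovered and 1% of those changed by 1. Small differences are thus mostly beyond this design, and the number of arrays limits the precision. The simulated noise was drawn independently for each feature and array, without shifts shared by an array or a slide. These rates may therefore not hold for the real arrays.

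Members and gene lists were chosen with earlier results of these data known. Genes given with values are members that were called or whose groups did not overlap, the 2 of each role with the smallest p, a list of central enzymes, and the 3 of each other list with the smallest p, of which 1 is not reported here. The ratios of isozymes and the printed promoters were chosen after the values were seen. Scaling, background correction (normexp on median signals), the filter, the probe rule, slide and replicate blocks and the leaving out of each array were varied, and the 75th percentile over spots was added after seeing the data.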

Additional observations from a re-analysis of the deposited data

How the results depend on the processing

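The count of called features on the whole array was 57 and moved to 99 after normexp, 37 with a minimum fold of 1.2, 9 within slide 1, 6 without a filter on dim probes and 6 with the replicate block, and to between 17 and 195 when an array was left out (17 without diabetic replicate 2, 195 without diabetic replicate 1). Of the members, 1 was called; 2 were with normexp, and 0 with quantile normalization, the authors' deposited table, no filter, the mean of the kept probes, slide as a block, within slide 1, the replicate block or the minimum fold, and 0 to 2 when an array was left out. The same-numbered samples did not deviate together (correlations of -0.18, -0.14 and 0.02). With 3 samples in each group and slides split unevenly between the groups, this cannot exclude a pairing. The median over the members was -0.048 after quantile normalization, 0.0091 in the deposited table and -0.029 with slide as a block or within slide 1. The glycolytic median was -0.067 after normexp, -0.070 in the deposited table, -0.029 with slide as a block or within slide 1, and from -0.28 to -0.075 when an array was left out, and the gluconeogenic one 0.020, -0.030 and from -0.45 to -0.18 for the deposited table, slide and left-out arrays. Signs turned for Hk2 (0.0071) and Hk3 (0.16) with slide as a block and within slide 1, for Pfkfb1 (0.014) after normexp, for Ldhb after quantile normalization (0.18), normexp (0.018), the deposited table (0.21), slide in both ways (0.27) and without diabetic replicate 2 (0.14, with -0.30 to 0.14 over the left-out arrays), and for G6pc1 after quantile normalization (0.011), the deposited table (0.042) and without Bailing Capsule replicate 3 (-0.69 to 0.065 over the left-out arrays). They also turned for Pdha1 in the deposited table (0.0091) and without Bailing Capsule replicate 2 (-0.48 to 0.083 over the left-out arrays), and without that replicate for Pkm (-0.15 to 0.35) and Pdk2 (-0.035 to 0.69), and for Ppara in the deposited table (0.51). The causes of these moves were not tested. The other 20 of the 29 genes followed kept their sign in the 20 alternatives in which they could be fitted. Slc16a1 ranged from -2.73 to -1.38 and passed the threshold in 8 of the 20.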
